A study of Mus musculus with 2 samples.

Results

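Within the heart section of 1 TOP2B transgenic mouse, the spots in which the myosin Myh7 had most replaced Myh6 were set against the spots in which it had replaced it least. For every spot the Myh7 share was taken as Myh7 UMIs over Myh6 plus Myh7 UMIs, where a UMI is a count of 1 captured molecule. Of 924 spots over tissue, 885 had at least 1000 UMIs and at least 20 Myh6 plus Myh7 UMIs. The 221 spots with the largest share are called high-share spots and the 221 with the smallest share low-share spots, and the 443 between them form a lower middle group of 221 and an upper middle group of 222. The series holds 2180 spots over tissue in all, 1256 of them in a control section, and 1246 control spots passed the same minimums. Spots were thus chosen by measured Myh6 and Myh7 counts, so these 2 genes describe the groups and are left out of every result. Both mice carried 1 copy of α-MHC-MerCreMer, a Cre recombinase that the cardiomyocyte promoter of Myh6 drives and that tamoxifen activates. The transgenic mouse also carried 1 copy of hTOP2B LSL, a human TOP2B cDNA behind a CAG promoter and a STOP cassette flanked by LoxP sites at Rosa26, so that Cre switches it on in cardiomyocytes. Both genotypes received a single intraperitoneal dose of 80 mg/kg tamoxifen, at 6 weeks of age in the study's acute model, and the control was a sibling of the same age without the TOP2B allele. The age at collection of these 2 sections was not given in the sources used here. Sections 5 μm thick were cut from formalin-fixed, paraffin-embedded hearts and measured with Visium CytAssist, which captures gene probes on an array of barcoded spots. A spot covers several cells, so a level describes a patch of tissue, and fewer cells of a type cannot be told apart from less RNA per cell.

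Myh6 and Myh7 encode the fast and the slow myosin heavy chain of the heart. The mouse ventricle uses Myh7 before birth and Myh6 afterwards, and a return of Myh7 is a textbook sign of a stressed or failing ventricle, together with the natriuretic peptide Nppa, skeletal actin Acta1 and a loss of mitochondrial gene expression. Whether such genes follow the myosin switch from place to place inside 1 heart is the question of this comparison. UMIs were summed over the spots of a group and scaled to a group total of 1000000 to give CPM, and groups were compared by the log2 ratio of high-share over low-share CPM. Ranges in parentheses after a log2 ratio are exact 95% intervals and cover counting error only. The groups come from 1 section and were picked on counts of the same spots, so no test was run, no p value is given, and a gene is called higher or lower here only by the size of its ratio. The spread inside the section is given instead, as the same ratio in the 3 spatial quadrants that held at least 10 spots of both groups.

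The Myh7 share had a median of 43.5% in the low-share spots, which ran from 22.7% to 48.6%, and 68.3% in the high-share spots, which ran from 65.1% to 82.9%. The 2 middle groups had medians of 53.1% and 61.7%. In the control section Myh7 made up 0.182% of the summed Myh6 and Myh7 UMIs, so even the least switched transgenic tissue was far from the control. The cutoffs fell inside a continuous range. The last spot inside the low-share group had 94 Myh6 and 89 Myh7 UMIs and the first spot outside it 95 and 90, while the last spot outside the high-share group had 74 and 138 and the first inside it 45 and 84. Depth was similar, with 3381367 UMIs in the low-share and 3116669 in the high-share group, and medians of 15373 and 14220 UMIs per spot, against 14368554 UMIs and a median of 11362.5 in the control spots. Of the spot barcodes, 725 occur in both sections, since the arrays share positions, and the comparison of groups uses the transgenic section alone.

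The 2 groups lay in different places, as the map of the section shows. High-share spots were most frequent in the lower right quadrant, with 88 of 221, and low-share spots in the upper left, with 97 of 221. The upper left held 19 high-share spots and the lower right held 5 low-share spots. Spots of a kind lay together. Of the neighbour positions of high-share spots that had a share, 54.3% were high-share and 2.73% low-share, and of those of low-share spots 62.9% were low-share and 2.38% high-share. The largest connected patch held 108 of the high-share and 121 of the low-share spots. High-share spots also lay more often at the edge of the tissue, where at least 1 of the 6 neighbour positions is empty, with 48.4% of them against 15.4% of the low-share spots, 24.4% and 41.4% in the middle groups and 17.7% in the control. Position, edge and Myh7 share therefore cannot be fully told apart in this section. Of the 66 genes on the gene lists that passed 1.5-fold, 37 kept their sign in the 3 quadrants, and for those named below that did not, the quadrant values are given. Smaller ratios turned in a quadrant for many genes.

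**Figure D1:**
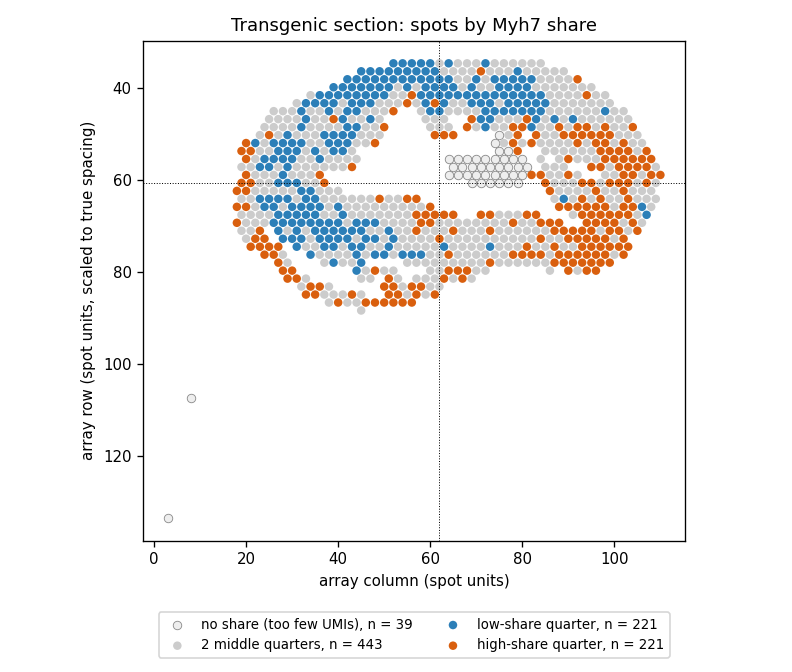
Spots of the TOP2B transgenic section by array column and array row (spot units, rows scaled to true spacing), colored by group: low-share group (n = 221), high-share group (n = 221), the 2 middle groups (n = 443) and spots without a share (n = 39). Dotted lines split the section into quadrants; low-share spots fill much of the upper wall and the left of the section, and high-share spots the right wall and the lower rim.

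Of 7657 genes with at least 100 UMIs over both groups, 333 (4.35%) were at least 1.5-fold higher and 117 (1.53%) at least 1.5-fold lower in the high-share spots. The median log2 ratio of all genes compared was 0.05, and the middle 80 percent of them lay between -0.29 and 0.43. With edgeR's TMM factors every ratio fell by 0.12, and the split turned to 186 higher and 252 lower, so the balance of the directions depends on the scaling, which shifts all genes alike. Small counts weigh on these numbers, since 194 of the higher and 55 of the lower genes had under 200 UMIs over both groups. Of the called genes, 232 of 333 and 69 of 117 ran 1 way through all 4 groups, against 20.3% of all genes compared, although the call itself uses 2 of those 4 values. Inside the 3 quadrants, 241 of the 333 and 63 of the 117 kept their sign, against 27.2% of all genes compared, and these spots are also among those behind the call. All 12 leading genes on the high side kept their sign in each quadrant, and 4 of the 12 on the low side did.

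**Figure D2:**
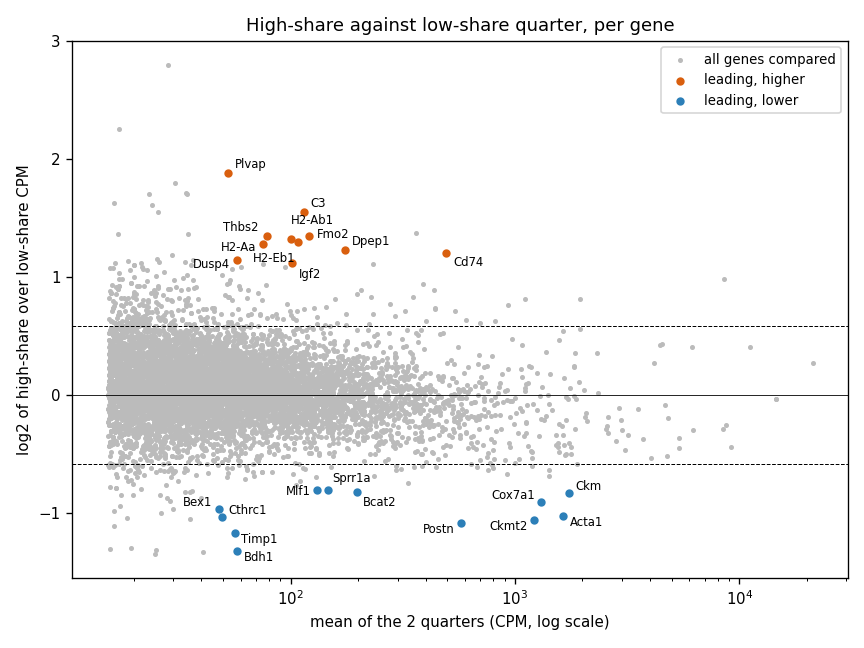
Log2 ratio of high-share over low-share CPM (vertical axis) against the mean CPM of the 2 groups (log scale) for 7657 genes; each point is a gene, dashed lines mark 1.5-fold and colors mark 11 of the 12 highest and the 12 lowest genes with at least 200 UMIs in either group. Ratios spread more at low levels, and the leading genes run from Plvap at 1.88 to Bdh1 at -1.32.

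Genes of antigen presentation led the high side. MHC class II molecules are pairs of an alpha and a beta chain that present peptides on dendritic cells, B cells and activated macrophages, and Cd74 is the invariant chain that escorts them. Cd74 stood at 237 CPM in the control section and at 299, 421, 597 and 691 CPM from the low-share to the high-share group. Its log2 ratio of high over low was 1.21 (1.10 to 1.32), with 1010 and 2153 UMIs. Each step up in share thus came with a step up in Cd74, and the low-share spots were the nearest to the control. The beta chain H2-Ab1 had 40.7 CPM in the control and 57.4, 83.0, 121.5 and 143.4 CPM over the 4 groups, a ratio of 1.32 (1.08 to 1.57). The beta chain H2-Eb1 had 45.8 CPM in the control and 62.4, 89.3, 135 and 154 CPM, a ratio of 1.30 (1.06 to 1.54). The alpha chain H2-Aa had 34.4 CPM in the control and 43.8, 68.0, 101 and 106 CPM, a ratio of 1.28 (0.99 to 1.57). All 4 genes ran the same way in the 3 quadrants, most steeply in the lower left, where their ratios were 1.74 to 2.05, and least in the upper left, at 0.23 to 0.65. Ciita, the master coactivator of these genes, was seen only at 10 and 19 UMIs and did not reach the minimum. The other genes of this pathway were looked at after the leading genes had been seen. The peptide loading genes H2-DMa, with 36 and 57 UMIs, and H2-DMb1, with 37 and 59, also missed it.

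The promoters of H2-Aa and H2-Eb1 are shown because these genes moved together and promoters of this class carry a conserved Y box, the inverted CCAAT element that the factor NF-Y is known to bind. The sequences are those of RefSeq on GRCm38.p6, 250 bases before to 50 after the start of transcription, read 5′ to 3′ along the gene. The table used held no H2-Ab1 promoter, and that of Cd74 is not shown. H2-Aa lies at chr17:34287774-34288073, minus strand, and H2-Eb1 at chr17:34305617-34305916, plus strand. Capitals mark ATTGG and its reverse complement CCAAT.
H2-Aa: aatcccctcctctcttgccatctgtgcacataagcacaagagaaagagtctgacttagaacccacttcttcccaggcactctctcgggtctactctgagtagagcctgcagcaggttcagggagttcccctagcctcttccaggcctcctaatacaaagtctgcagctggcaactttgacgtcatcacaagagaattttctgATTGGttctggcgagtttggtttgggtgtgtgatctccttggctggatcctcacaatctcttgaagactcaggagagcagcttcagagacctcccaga
H2-Eb1: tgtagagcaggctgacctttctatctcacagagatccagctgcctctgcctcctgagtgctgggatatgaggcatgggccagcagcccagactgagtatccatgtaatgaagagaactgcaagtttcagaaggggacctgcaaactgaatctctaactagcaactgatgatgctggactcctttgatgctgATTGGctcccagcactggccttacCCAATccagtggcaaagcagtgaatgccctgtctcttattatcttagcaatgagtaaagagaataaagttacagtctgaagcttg
ATTGG, searched on both strands, occurred at 1 place in the H2-Aa and at 2 places in the H2-Eb1 window, and in 37.4% of the 32851 promoters of this length. The longer form CTGATTGG, which contains it, occurred 1 time in each of the 2 windows and in 4.10% of all promoters. A match of letters is a description of the window and says nothing of binding in these hearts.

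MHC class I genes, complement genes and general leukocyte genes were also looked at after the leading genes were seen. H2-K1, a class I heavy chain, had 252, 324, 377 and 448 CPM over the 4 groups and 311 CPM in the control, a ratio of 0.83 (0.71 to 0.96). H2-D1, another heavy chain, had a ratio of 0.73 (0.62 to 0.84), and their common light chain B2m one of 0.61 (0.52 to 0.70), with 552, 642, 708 and 843 CPM over the 4 groups and 487 in the control. These 3 genes lay between 0.36 and 0.91 in each of the 3 quadrants, and H2-K1 and H2-D1 are near copies of other class I genes, so their split is uncertain. C3, the central complement protein, had 54.6 CPM in the control and 58.0, 71.4, 106 and 170 CPM over the 4 groups. Its ratio was 1.56 (1.32 to 1.80), and the low-share spots stood at the control level. Inside quadrants C3 ran from 0.41 in the upper left to 4.42 in the lower left. C4b at 1.16 (0.67 to 1.66), C1ra at 1.09 (0.56 to 1.63) and the C1 inhibitor Serping1 at 0.67 (0.54 to 0.81) were on the same side. Igkc, the constant part of the antibody kappa chain, had 24 and 154 UMIs, a ratio of 2.80 (2.17 to 3.49), and the largest of all genes compared. It was found in 9.05% of low-share and 20.4% of high-share spots, so a small part of the spots carried it. Ptprc, the CD45 antigen of all leukocytes, had 50 and 96 UMIs, a ratio of 1.06 (0.55 to 1.58) that was -1.85 in the upper left quadrant. Irf8, a factor of monocytes and dendritic cells, was at 0.97 (0.58 to 1.38) but at -0.89 in the upper left, and the monocyte chemokine receptor Ccr2 at 1.10 (0.56 to 1.67).

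Of a list of macrophage markers no gene passed 1.5-fold, beside 4.35% higher and 1.53% lower among all genes compared. Some myeloid genes outside the list, looked at later, did pass it. Of the 7 macrophage markers compared all 7 lay above 0 (4 of 7 with TMM factors), and the median was 0.19 beside 0.05 for all genes. The mannose receptor Mrc1 was the lowest at 0.05 (-0.26 to 0.36), with 52.9 and 54.9 CPM, and Cd68 the highest at 0.29 (-0.16 to 0.75). Summed macrophage markers had 596 CPM in the low-share, 669 in the high-share and 321 in the control spots. The myeloid genes Mpeg1, at 0.95 (0.62 to 1.28), and Ly86, at 1.07 (0.51 to 1.64), and the leukocyte antigen Cd52, at 1.19 (0.74 to 1.65), were looked at later and lay above 0 in each quadrant, on 42 to 120 UMIs in the low-share spots. Lymphocyte and granulocyte markers were sparse, with 63 UMIs over 10 genes in the low-share and 99 in the high-share spots, or 18.6 and 31.8 CPM, against 24.5 in the control. By quadrant they ranged from 12.3 to 27.4 CPM in the low-share and from 18.7 to 38.0 CPM in the high-share spots, and Cd3d and Cd8a had 0 UMIs in the low-share spots. The part of such cells in the class II result was not tested.

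The gene furthest apart among the 24 leading ones was Plvap, which forms the diaphragms of fenestrated vessels and is low in continuous heart capillaries. It had 15.4 CPM in the control and 22.5, 50.8, 65.7 and 82.8 CPM over the 4 groups, with 76 UMIs in the low-share and 258 in the high-share spots. The log2 ratio was 1.88 (1.51 to 2.27), or 3.68-fold, and it lay between 1.98 and 3.18 inside the quadrants. Plvap was found in 22.6% of low-share and 48.9% of high-share spots. General endothelial markers did not share this pattern. None of 9 passed 1.5-fold, beside 4.35% higher and 1.53% lower among all genes compared. Their median was -0.00, and their sum was 1881 CPM in the low-share, 1899 in the high-share and 1852 in the control spots. Cldn5, a tight junction protein, was the highest at 0.41 (0.20 to 0.61) and the VEGF receptor Kdr the lowest at -0.14 (-0.35 to 0.07). Fmo2, a flavin monooxygenase, had 24.5 CPM in the control and 67.7, 108, 154 and 173 CPM over the 4 groups, a ratio of 1.35 (1.12 to 1.58). Dusp4, a phosphatase of MAP kinases that growth signals induce, had 6.61 CPM in the control and 35.8, 52.0, 69.6 and 79.3 CPM, a ratio of 1.15 (0.83 to 1.47). Igf2, a fetal growth factor, had 75.4 CPM in the control and 64.2, 119, 123 and 140 CPM, a ratio of 1.12 (0.88 to 1.36). Fmo2, Dusp4 and Igf2 kept their sign in the 3 quadrants, and Igf2 was the only one of the 12 leading high-side genes that was below the control in the low-share spots.

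Of 10 markers of resident fibroblasts, 5 were at least 1.5-fold higher in the high-share spots and none was lower, beside 4.35% and 1.53% of all genes compared. The median of the 10 markers was 0.60, beside 0.05 for all genes. The membrane dipeptidase Dpep1 led them, with 39.2 CPM in the control and 104, 145, 176 and 246 CPM over the 4 groups, a ratio of 1.24 (1.05 to 1.42) that was above 0 in each quadrant. Tcf21, a transcription factor of cardiac fibroblasts, was at 0.89, Pdgfra at 0.81, Gsn at 0.64 and the small proteoglycan Dcn at 0.63, and Pi16 was the lowest at -0.33 (-0.49 to -0.16). Of 9 markers of activated fibroblasts 2 were higher and 2 lower, with a median of -0.28. The activated median was 0.44, -1.08 and 1.76 in the upper left, upper right and lower left quadrants, and the resident median 0.77, 0.21 and 1.35, so the lists lay on opposite sides of 0 in the upper right alone, and the difference between them was not tested. Postn, the periostin of wound fibroblasts, had 18.2 CPM in the control and 784, 433, 448 and 369 CPM over the 4 groups, a ratio of -1.09 (-1.19 to -0.99). Cthrc1, a collagen regulator of scar fibroblasts, had 0.557 CPM in the control and 66.2, 32.0, 35.6 and 32.4 CPM, a ratio of -1.03 (-1.39 to -0.69). Both were highest by far in the low-share group, and the other 3 groups differed little. Inside quadrants this did not hold throughout. Postn was at -0.56 in the upper left, -1.68 in the upper right and 1.24 in the lower left, and Cthrc1 at 0.03, -1.77 and 2.07. In spots below the median in the share of collagen UMIs, with groups formed anew, the Postn ratio was 0.01 and that of Cthrc1 0.90. Acta2, the smooth muscle actin of vessels and myofibroblasts, went the other way, with 293 CPM in the control and 305, 358, 450 and 566 CPM, a ratio of 0.89 (0.78 to 1.01). Comp, at 0.71, was the other activated fibroblast marker on the high side, and it was at 1.19, -0.52 and 5.09 in the 3 quadrants.

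Of 21 collagen genes, 3 were higher and none lower, beside 4.35% and 1.53% of all genes compared, with a median of 0.18. The 3 were Col9a2 at 0.84 (0.51 to 1.17), a collagen of cartilage, and the basement membrane chains Col4a4 at 0.71 and Col4a3 at 0.64, and the last 2 were at -0.26 and -0.23 in the upper right. The fibrillar collagens Col1a1 and Col3a1 were both at 0.24, and Col8a1, of vessel walls, was the lowest at -0.31 (-0.45 to -0.16). Of 37 other matrix and matrix-modifying genes, 6 were higher and 3 lower, with a median of 0.11. Thbs2, a thrombospondin that limits vessel growth, had 26.7 CPM in the control and 44.1, 51.1, 81.5 and 112 CPM over the 4 groups, a ratio of 1.35 (1.07 to 1.64). Fmod, Mmp14, Comp, Ccn5 and Mmp2 were the other 5 higher genes, at 0.68 to 0.86, and Fmod and Ccn5 were at -0.34 and -0.22 in the upper right, as Comp was below 0 there. Timp1, an inhibitor of matrix metalloproteinases, was the lowest, with 1.88 CPM in the control and 77.8, 54.5, 45.2 and 34.7 CPM, a ratio of -1.17. Timp1 was lower in the high-share spots in each quadrant, at -1.40, -1.54 and -0.08, while the medians of both matrix lists turned from below 0 in the upper right to above 1 in the lower left. The elastin gene Eln, looked at later, had 47.4 CPM in the control and 1320, 1432, 1700 and 1826 CPM over the 4 groups. In the low-share spots 34 of the 37 were at least 2-fold above the control, beside 11.0% of all genes compared. In the high-share spots 35 were, beside 755 of 7255 genes with at least 200 UMIs there or in the control.

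Genes of energy metabolism led the low side. Of 62 oxidative phosphorylation genes, which build the respiratory chain and ATP synthase, 12 were at least 1.5-fold lower in the high-share spots and none was higher. Beside this stand 1.53% lower and 4.35% higher among all genes compared. In all, 60 of the 62 lay below 0. Their median was -0.42 beside 0.05 for all genes, and the list took 10.7% of UMIs in the control and 6.39%, 6.27%, 5.32% and 4.68% over the 4 groups. By complex the medians were -0.41 for 30 genes of complex I, -0.28 for 4 of complex II, -0.50 for 8 of complex III, -0.43 for 8 of complex IV and -0.42 for 12 of ATP synthase. Cox7a1, the muscle form of a cytochrome oxidase subunit, had 5529 CPM in the control and 1711, 1690, 1157 and 915 CPM, a ratio of -0.90 (-0.97 to -0.84) that was 0.16 in the upper right. Cox7c, another subunit, was the highest at 0.12 (-0.32 to 0.55) with 91 UMIs in each group. Of 26 fatty acid oxidation genes none passed 1.5-fold, but 23 lay below 0, with a median of -0.39 and a range from Cpt2 at -0.56 (-0.72 to -0.40) to Cpt1a, the liver form of the entry enzyme, at 0.15 (-0.01 to 0.30). Of 15 tricarboxylic acid cycle genes none passed it either, and 14 lay below 0, with a median of -0.40 and the lowest value for citrate synthase, Cs, at -0.55 (-0.62 to -0.47) and the highest for Idh3b at 0.14 (-0.19 to 0.46). The share of UMIs of the oxidative phosphorylation list was nearly level from the low-share to the lower middle group and lower in the next 2. Inside quadrants the oxidative phosphorylation median was -0.23 in the upper left, 0.11 in the upper right and -0.68 in the lower left, and that of fatty acid oxidation -0.20, 0.33 and -0.69. The direction thus held in 2 of the 3 quadrants, and the upper right went against it.

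Creatine kinases carry high-energy phosphate from mitochondria to the myofibrils. Ckmt2, the mitochondrial form, had 3042 CPM in the control and 1650, 1587, 1153 and 791 CPM over the 4 groups, a ratio of -1.06 (-1.13 to -0.99). Ckm, the muscle form, had 4731 CPM in the control and 2219, 2097, 1581 and 1249 CPM, a ratio of -0.83 (-0.89 to -0.77). Both were at 0.25 and 0.30 in the upper right quadrant and below 0 in the other two. The creatine transporter Slc6a8, looked at later, differed little, at 0.23 (0.11 to 0.35). Of the 12 carrier and phosphotransfer genes Ckmt2 and Ckm were the only ones past 1.5-fold, both lower, beside 1.53% of all genes compared. Slc25a34 was the highest of the 12 at 0.56 (0.31 to 0.81). Bdh1, the mitochondrial enzyme that turns the ketone body β-hydroxybutyrate into acetoacetate, had the lowest ratio of the leading genes. It had 85.5 CPM in the control and 82.5, 61.7, 41.1 and 33.0 CPM over the 4 groups, a ratio of -1.32 (-1.66 to -0.99). The low-share spots stood at the control level, every further group was lower, and the ratio lay between -1.84 and -0.65 in the 3 quadrants. Bdh1 was found in 71.9% of low-share and 34.4% of high-share spots. Oxct1, the next enzyme of ketone use, was looked at later and had 1864 CPM in the control and 950, 942, 745 and 632 CPM, a ratio of -0.59 (-0.67 to -0.51) that was 0.16 in the upper right. Bcat2, which starts the breakdown of branched-chain amino acids, had 192 CPM in the control and 252, 224, 179 and 142 CPM, a ratio of -0.82 (-0.99 to -0.66) that was 0.65 in the upper right. Gpt, an alanine aminotransferase seen later, was at -1.33 (-1.74 to -0.93), with 196 and 72 UMIs and values below 0 in each quadrant. Among regulators of mitochondrial genes, the fatty acid receptor Ppara was at -0.44 (-0.94 to 0.04) and Klf15, a factor of amino acid and lipid use, at 0.68 (0.41 to 0.96), with a list median of -0.04.

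**Figure D3:**
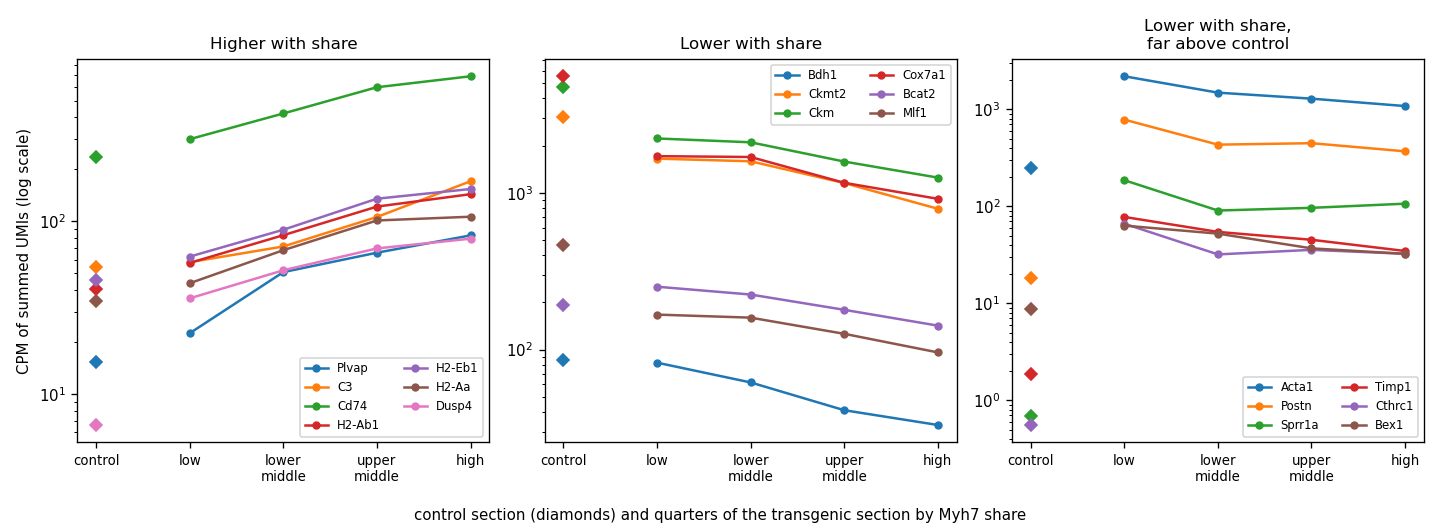
CPM of summed UMIs (log scale) in the control section (diamonds) and in the 4 groups of the transgenic section from low to high Myh7 share (points joined by lines), for 7 genes higher with share, 6 lower with share and 6 lower with share that were far above the control or, for Bex1, 8.77 CPM there. C3 and Bdh1 start at the control level in the low-share group, and Postn, Sprr1a and Cthrc1 drop after the low-share group and then differ little.

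In summed UMIs, stress genes of cardiomyocytes did not follow the myosin switch as a group over the whole section. Of 17 fetal and stress genes 1 was higher and 2 were lower, beside 4.35% and 1.53% of all genes compared, with a median of -0.08. That median was 0.08, -0.28 and 0.51 in the upper left, upper right and lower left quadrants. Over 16 other settings it ran from -0.24, with 10% of the spots at each end, to 0.27, in the spots poorest in collagen UMIs. In each group 14 of the 17 were at least 2-fold above the control. Beside this stand 11.0% of all genes compared for the low-share spots. For the high-share spots it was 755 of 7255 genes with at least 200 UMIs there or in the control. Nppa, the atrial natriuretic peptide, had 274 CPM in the control and 19211, 17455, 22064 and 23239 CPM over the 4 groups, a ratio of 0.27 (0.26 to 0.29). It was at -0.17 in the upper right and 0.95 in the lower left quadrant. Over the same 16 settings Nppa ran from -0.07, with 10% of the spots at each end, to 1.06, in the spots poorest in collagen UMIs. Single spots differed more than the sums, with a median Nppa level of 10821 CPM in low-share and 19488 in high-share spots. The level exceeded by 10% of spots was alike, at 41157 and 41878 CPM. Acta1, the skeletal actin, went the other way, with 246 CPM in the control and 2194, 1487, 1290 and 1082 CPM, a ratio of -1.02 (-1.08 to -0.96) that was -1.08, -0.99 and -0.32 in the quadrants. Sprr1a, a stress protein induced in strained cardiomyocytes, had 10 UMIs in the control, or 0.696 CPM, and 186, 90.5, 96.5 and 107 CPM over the 4 groups, a ratio of -0.80. Sprr1a was patchy, since its ratio was -1.52 and -1.60 in the upper quadrants and 6.22 in the lower left, and 2.28 in the spots poorest in collagen UMIs. It was found in fewer low-share spots, 43.0%, than high-share spots, 54.3%. The level exceeded by 10% of spots was 669 CPM in the low-share and 264 in the high-share group, so the lower sum came from the richest spots. Tnni1, the slow skeletal troponin I of the fetal heart, was the 1 higher gene, with 1.53 CPM in the control and 38.4, 50.4, 70.2 and 81.8 CPM, a ratio of 1.09 (0.78 to 1.41) and above 0 in each quadrant. Tnni1 thus ran with Myh7 over the 4 groups, while Acta1 ran against it. Bex1, a small protein of stressed muscle, had 8.77 CPM in the control and 63.3, 52.3, 36.9 and 32.4 CPM, a ratio of -0.97 (-1.32 to -0.62). Mlf1 had 462 CPM in the control and 167, 160, 126 and 95.9 CPM, a ratio of -0.80 (-1.01 to -0.60) that was 0.0029 in the upper right.

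Adult sarcomere genes differed little between the groups. None of 20 passed 1.5-fold, and they ran from Tnnc1, cardiac troponin C, at -0.44 (-0.47 to -0.41) to Cmya5 at 0.27 (-0.01 to 0.56), with a median of -0.08. Their UMIs made up 9.71% in the control and 7.56%, 7.68%, 7.29% and 6.79% over the 4 groups. Of 18 calcium handling genes 1 was higher, the calcium channel Cacna1c at 0.65 (0.20 to 1.12), which had 111 CPM in the control and 20.4, 21.6, 23.7 and 32.1 CPM. Atp2a2, the calcium pump SERCA2, had 6873 and 5616 CPM, and the calcium store protein Casq2, the lowest, was at -0.36 (-0.47 to -0.25). Among 14 ion channel genes 5 were higher and none lower, beside 4.35% and 1.53% of all genes compared, with a median of 0.06. The 5 were the T-type calcium channels Cacna1h at 0.90 and Cacna1g at 0.76, the potassium channel subunits Kcne1 at 0.68 and Kcnj5 at 0.66, and Kcnj12 at 0.61, which was at -0.58 in the lower left. T-type channels are known from the fetal and the atrial heart, and Cacna1h had 4.04 CPM in the control and 11.8, 18.5, 20.2 and 22.1 CPM. It rests on 40 and 69 UMIs, and its ratio was 0.26 away from the tissue edge. Intercalated disc genes, which join the cells end to end, had no member past 1.5-fold among 16, from Nrap at -0.40 (-0.53 to -0.27) to Lmo7 at 0.44 (0.20 to 0.68). Of 17 cardiac transcription factors 15 lay above 0 (12 with TMM factors) and the median was 0.25, with Myocd, the coactivator of serum response factor, at 0.82 (0.53 to 1.12), Meis1 at 0.78 and Irx1 at -0.89 (-1.35 to -0.45), which was at 1.23 in the upper right. Myocd had 83.8 CPM in the control and 46.1, 54.5, 57.1 and 81.5 CPM, so the high-share spots were nearer to the control than the low-share spots were.

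Most genes of other stress programs stayed within 1.5-fold between the groups, as most of all genes compared did, with 4.35% higher and 1.53% lower. Of 14 p53 targets 2 were higher, Gadd45a at 0.93 (0.40 to 1.47) on 48 and 84 UMIs and Bbc3 at 0.62, none was lower, Fas was the lowest at -0.35 (-0.79 to 0.09), and the median was 0.21. None of 11 integrated stress response genes passed 1.5-fold, from Atf3 at -0.53 (-0.88 to -0.20) to Pck2 at 0.58 (0.26 to 0.91). None of 14 heat shock and chaperone genes did, from Hspb6 at -0.54 (-0.61 to -0.47) to Dnaja1 at 0.12 (-0.15 to 0.39). Their median was -0.20, with 4 of 14 above 0 (0 with TMM factors). By quadrant it was -0.29 in the upper left, -0.22 in the upper right and 0.03 in the lower left. None of 14 glucose uptake and glycolysis genes passed 1.5-fold either, from the muscle enolase Eno3 to Pfkp at 0.13 (-0.02 to 0.29). Of 14 immediate early genes 1 was lower, Klf4 at -0.66 (-1.02 to -0.30), and Maff was the highest at 0.33 (0.09 to 0.58). Of 12 hypoxia response genes 1 was higher, Bnip3l at 0.72 (0.22 to 1.22), and Pdk1 was the lowest at -0.21 (-0.34 to -0.09). Of 11 gp130 and acute-phase genes Pim1 was higher at 0.95 (0.63 to 1.29), with -0.03 in the upper left, and Socs3, the feedback inhibitor of this pathway, lower at -1.04 (-1.64 to -0.48) with 85 and 38 UMIs, together with Lcn2 at -0.71. Socs3 was at -1.26 and -2.17 in the upper quadrants and 0.71 in the lower left. Of 14 desmin, tubulin and cytoskeletal genes 1 was lower, Tuba4a at -0.65 (-1.08 to -0.22) but at 0.11 and 0.07 in the upper quadrants, and Pdlim3 was the highest at 0.23 (0.10 to 0.35). Of 4 natriuretic peptide processing and receptor genes the clearance receptor Npr3 was higher at 0.93 (0.62 to 1.24), and the protease Furin was the lowest at -0.34 (-0.51 to -0.18).

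**Figure D4:**
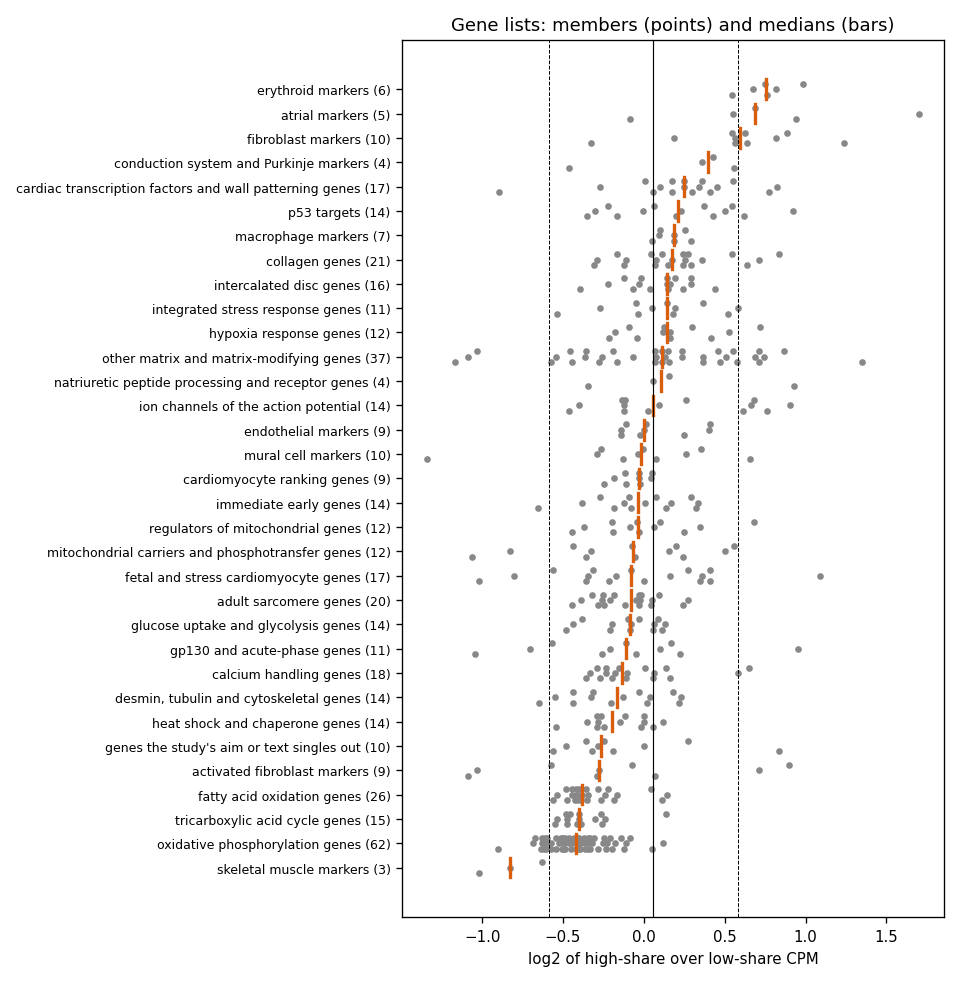
Log2 ratio of high-share over low-share CPM for the members of each gene list with at least 3 members compared; gray points are genes, orange bars are list medians, numbers in parentheses are members compared, the solid line is the median of all genes at 0.05 and dashed lines mark 1.5-fold. Most lists center near the median of all genes. The 3 skeletal muscle markers lie furthest to the left at -0.83. Next come oxidative phosphorylation, the tricarboxylic acid cycle and fatty acid oxidation between -0.42 and -0.39, and then activated fibroblast markers at -0.28. The erythroid, atrial and fibroblast markers lie furthest to the right.

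Several markers of other cells ran with the groups and belong beside these results. Erythroid markers mark red blood cells and their RNA. Among 6 compared, 5 were at least 1.5-fold higher in summed UMIs, beside 4.35% of all genes compared, with a median of 0.75. Their sum was 1864 CPM in the control and 8021, 9340, 14477 and 15315 CPM over the 4 groups, with all 8 genes in the files higher in the high-share spots and none at 0 UMIs. By quadrant the sum ran from 6322 to 9594 CPM in the low-share and from 7856 to 29418 CPM in the high-share spots. Hba-a2, an alpha globin, made up most of it, at 0.99 (0.96 to 1.01) but at -0.30 in the lower left, and near-identical globin genes may share its reads. Single spots differed little in the middle, with a median Hba-a2 level of 4033 CPM in low-share and 4356 in high-share spots. The level exceeded by 10% of spots was 10226 and 16980 CPM. The red cell anion exchanger Slc4a1 was the lowest at 0.55 (-0.01 to 1.11), and was found in 18.6% of low-share and 19.0% of high-share spots. The summed fibroblast markers ran from 3340 to 4951 CPM, with 1740 in the control, and by quadrant from 1836 to 5573 CPM in the low-share and 4366 to 5463 CPM in the high-share spots, with no marker at 0. Atrial markers summed to 155 CPM in the low-share, 269 in the high-share and 112 in the control spots. By quadrant they ran from 93.1 to 272 CPM in the low-share and from 229 to 286 CPM in the high-share spots. Of the 10 genes 9 had a ratio above 0, but Bmp10 is among these only because its count of 0 was set to 3. Bmp10 had 0 UMIs in the high-share spots and was seen in the low-share spots, so its raw count went the other way. Of the 10 atrial markers Myl7, the atrial light chain, had 8.70 CPM in the control and 16.3, 27.9, 32.1 and 52.9 CPM, a ratio of 1.70. Myl4 was at -0.09 (-0.55 to 0.36). Epicardial and mesothelial markers, from the outer lining of the heart, summed to 48.2 CPM in the low-share, 81.5 in the high-share and 34.7 in the control spots, with 8 of 10 genes higher in the high-share spots, and by quadrant from 30.3 to 55.6 and from 44.7 to 163 CPM. Msln, the mesothelial mesothelin and the only one with enough UMIs, had 20 and 88 UMIs, a ratio of 2.26 (1.54 to 3.03) that was 0.89 away from the tissue edge. Ncam1, counted on the Schwann cell list but known in stressed cardiomyocytes too, had 11.1 CPM in the control and 339, 369, 411 and 445 CPM, a ratio of 0.39 (0.28 to 0.51). The part of these cells in the differences between groups was not tested. The counts that follow come from fewer spots of the same section and are given as values only. In spots below the median in the share of erythroid UMIs, with groups formed anew, the erythroid median was -0.13, and 264 of the 333 higher and 93 of the 117 lower genes were still past 1.5-fold. In spots below the median in fibroblast markers, 160 and 48 were, and away from the tissue edge 261 and 87. Of 10 mural cell markers 1 was higher and 1 lower, beside 4.35% and 1.53% of all genes compared. The higher was Pdgfrb at 0.65 (0.43 to 0.88). The lower was Cnn1 at -1.34 (-1.87 to -0.83) with 121 and 44 UMIs. Cnn1 was at -1.32 and -2.47 in the upper quadrants and 2.21 in the lower left. Of 4 conduction system markers none passed, and the median was 0.39. It was -0.31, 0.56 and -0.35 in the upper left, upper right and lower left quadrants. The 3 skeletal muscle markers compared, Acta1, Ckm and Tnnt3, were all lower, beside 1.53% of all genes compared. Of all 10 on the list 6 lay above 0, none of them with enough UMIs to be compared. Tnnt3 was at -0.63 (-1.07 to -0.20) but at 0.62 in the lower left, while Myh4, the defining fast skeletal myosin, had 0 UMIs in the low-share spots.

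**Figure D5:**
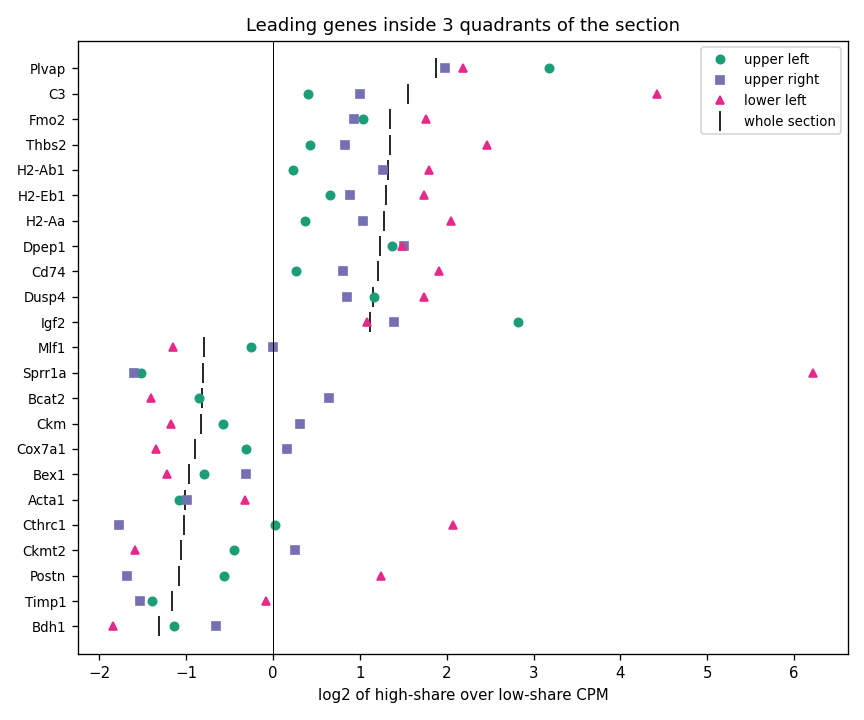
Log2 ratio of high-share over low-share CPM for 11 of the 12 highest and the 12 lowest leading genes in the whole section (black bars) and inside the upper left, upper right and lower left quadrants (colored symbols). The 11 upper genes lie above 0 in all 3 quadrants, while Sprr1a, Postn, Cthrc1 and the energy genes Ckmt2, Ckm, Cox7a1 and Bcat2 lie on both sides of 0.

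The low-share spots show what is kept where the myosin switch went least far. Of 9659 genes with at least 100 UMIs over both groups, 1065 (11.0%) were at least 2-fold higher and 553 (5.73%) at least 2-fold lower in the low-share spots than in the control section, with a median log2 ratio of 0.17. Section, animal and genotype cannot be told apart in this comparison, which rests on 1 section of each. Of 755 genes at least 2-fold above the control in the high-share spots with at least 200 UMIs in either, 495 (65.6%) were within 0.32 of that level on the log2 scale in the low-share spots as well, and 5 were within 0.32 of the control. Of 541 genes at least 2-fold below it, 278 (51.4%) were at a like level in both groups, and 1 was at the control level in the low-share spots. Of all 7255 genes with as many UMIs, whatever their distance from the control, 75.9% had both groups within 0.32, so these shares were not above that of genes in general. For 216 of the 755 and 166 of the 541 the low-share spots were further from the control than the high-share spots were. Both ratios share the control section, and no more is read from their likeness. The 5 genes at the control level were C3, Fbln1, Mov10, Sdc2 and Lcp1, and the 1 gene on the low side was Bdh1. Fbln1, a fibulin of the matrix, had 17.1 CPM in the control, 19.5 in the low-share and 50.4 in the high-share spots. The syndecan Sdc2 had 20.3, 25.1 and 44.6 CPM in the same order, the leukocyte plastin Lcp1 25.0, 30.5 and 50.7, and the RNA helicase Mov10 14.6, 17.7 and 33.7. These levels rest on 60 to 103 UMIs in the low-share spots, and 196 for C3.

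Genes that were shifted to a like degree in the summed UMIs of both groups were led by known stress and matrix genes. Besides Nppa they were the acute-phase inhibitor Serpina3n, with 2.37 CPM in the control, 160 in the low-share and 180 in the high-share spots, and the collagen crosslinking enzyme Lox, with 2.23, 146 and 120 CPM. Cilp, a matrix protein of cartilage and scar, had 6.05, 139 and 132 CPM, and the ubiquitin hydrolase Uchl1 9.81, 253 and 283 CPM. Trnp1 had 5.57, 128 and 131 CPM, Cd24a 4.73, 107 and 94.7 CPM, and Col8a1 12.8, 279 and 226 CPM. On the low side, Ucp3, an uncoupling protein of muscle mitochondria, had 99.2 CPM in the control and 7 UMIs in each group, or 2.07 and 2.25 CPM. Fndc5, the precursor of irisin, had 292 CPM in the control and 16.9 and 18.0 CPM in the low-share and high-share spots. Kcnip2, a subunit of the transient outward potassium channel, had 209, 14.5 and 17.3 CPM, Lrtm1 252, 21.6 and 19.9 CPM, and the tubulin Tuba8 444, 54.7 and 53.6 CPM. Mylk4 had 123, 18.9 and 15.4 CPM, the retinoid receptor Rxrg 93.1, 13.3 and 12.2 CPM, and Asb10 45.2, 5.62 and 6.42 CPM. These genes were picked for lying within 0.32 between the groups on the log2 scale, so their likeness follows from the rule. Some rest on few UMIs in the low-share and high-share spots, with 19 and 20 for Asb10, 45 and 38 for Rxrg and 64 and 48 for Mylk4. Intervals of these 3 ratios, at -0.79 to 1.18, -0.79 to 0.53 and -0.87 to 0.27, reach past 0.32 either way. Quadrants differed, as for Cilp at -0.64 in the upper right and 3.23 in the lower left. Serpina3n was at -0.62 and 2.49 there, Lox at -1.08 and 1.76, and Uchl1 at -0.48 and 1.40. On the low side Asb10 was at 1.04 and 1.08 in the upper quadrants and -2.67 in the lower left. Spot medians could differ too, at 63.5 CPM in low-share and 116 in high-share spots for Serpina3n, 70.1 and 108 for Lox, and 188 and 251 for Uchl1. They were alike for Trnp1, at 118 and 113 CPM, and Cd24a, at 72.9 and 74.0 CPM.

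Genes that bear on the study's aim are given for both groups. Top2b, probed as the mouse gene, had 106 CPM in the control and 101, 98.7, 112 and 100 CPM over the 4 groups, a ratio of -0.00 (-0.23 to 0.22). Whether its probe also reads the human transgene was not given in the sources used here, so these values do not measure the transgene. Smyd1, the muscle histone methyltransferase, had 868 CPM in the control and 346, 337, 328 and 304 CPM, a ratio of -0.19 (-0.31 to -0.06). Smyd1 was at -0.04, 0.18 and -0.42 in the 3 quadrants. Ttn, the giant spring protein titin, was at -0.25 (-0.30 to -0.19), and Eno3 had 2772 CPM in the control and 1386, 1373, 1186 and 993 CPM, a ratio of -0.48 (-0.55 to -0.42). The troponin Tnni3 was at -0.32 (-0.37 to -0.28), the ventricular light chain Myl2 at -0.28 (-0.31 to -0.26) and the oxoglutarate carrier Slc25a11 at -0.36 (-0.48 to -0.24), and Slc25a11 and Myl2 were above 0 in both upper quadrants. Myh8, the perinatal skeletal myosin, had 0 UMIs in the control, 80 in the low-share and 50 in the high-share spots. Setting the whole control section to 3 UMIs, equal to 0.209 CPM, puts the low-share level 113-fold and the high-share level 76.8-fold higher. Counting error in the 80 and 50 UMIs is left out of these folds. With it, the exact interval of the log2 ratio of low-share over control began at 6.49. The Myh8 ratio between the groups was -0.56 (-1.10 to -0.03), and it was 0.08 and 0.64 in the upper quadrants and -0.94 in the lower left. Col9a2 had 7 UMIs in the control, or 0.487 CPM, and 37.6, 42.3, 58.4 and 67.1 CPM over the 4 groups, and it kept its sign in each quadrant.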

How the data were processed

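Reads were turned into counts by the authors with Space Ranger, whose version in the matrix header is 2.0.0. The submitters' processing notes also name bcl2fastq and the builds GRCm39 and mm39, and the probe set is not given in the sources used here. The deposited values are unnormalized UMI counts of each gene in each spot over tissue, for 1 control and 1 TOP2B transgenic section, with 14376300 and 12953389 UMIs. Whole numbers and unequal totals were checked in the deposited counts. The authors' scale factors and spatial enrichment scores were not used. Of 19465 gene rows, 11 symbols occur on several rows, which were kept apart.

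UMIs were summed per group of the Myh7 share and compared as log2 ratios of CPM, with Myh6 and Myh7 left out of all results but kept in the totals. A count of 0 was set to 3 for a bound. Intervals are exact conditional binomial (95%) and cover counting error only, since spots of 1 section are not replicates. Spots below or above a median in a marker list were split by that list's share of UMIs. Quadrants were split at the median array row and column. Named genes are the 12 highest and 12 lowest ratios of genes reaching 200 UMIs in either group, each list's highest and lowest member, genes the study's aim or text singles out, and the 8 genes furthest from the control each way among those at the control level in the low-share group and among those at a like level in both groups. A few genes that the rule names are not reported here. Others are said to have been looked at later, or are members of a list named for a count. The groups, lists and rules were chosen with earlier results of these data known, and the alternative of spots poorest in fibroblast markers was added after seeing the data. Sums and intervals were made in Python 3.11.15 (scipy 1.17.1, numpy 2.4.6, pandas 2.3.3), with edgeR 4.0.16 and DESeq2 1.42.0 in R 4.3.3 for other scalings only. The ratio, its counting interval and the fold calls were tested on simulated group sums with known folds. That simulation held no single spots, choice by Myh7 share or quadrants, so those steps were not tested by it. Promoter sequences came from RefSeq on GRCm38.p6, another build than the notes name, and no coordinate of the counts was used.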

Additional observations from a re-analysis of the deposited data

How the results depend on the processing

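The count of genes higher in the high-share spots, 333, was 186 with either TMM or DESeq2 size factors, 204 with 10% of the spots at each end, 114 in spots below the median in fibroblast markers, 213 with groups formed inside each quadrant, 69 among genes with at least 400 UMIs, 51 at 2-fold and 4346 without a minimum. The count of lower genes, 117, was 252 with TMM and 250 with DESeq2 size factors, 73 in spots below the median in fibroblast markers, 40 with at least 400 UMIs, 14 at 2-fold and 1898 without a minimum. Against the control, 1065 higher genes became 666 in spots above the median in cardiomyocyte genes, 627 in spots below the median in collagen genes, 549 with at least 400 UMIs, 269 at 4-fold and 3007 without a minimum, and 553 lower genes became 87 at 4-fold and 1997 without a minimum. The other 47 of these counts stayed within 1.5 times. Fewer genes or spots enter some settings by construction, and the cause of the other moves was not tested. All 12 leading high-side genes and 9 of the 12 leading low-side genes kept their sign under all 16 settings that give a ratio. Some of these settings could not turn them. A minimum of UMIs leaves the ratio of a gene as it was, and size factors shift all genes alike by far less than these ratios. The other settings reuse spots that also served to pick the genes. In spots below the median in collagen genes Sprr1a was at 2.28, Cthrc1 at 0.90, Postn at 0.0090 and Tnnt3 at 0.14. In spots below the median in erythroid markers their median was -0.13 and Hba-a2 at -0.0417, in spots above the median in cardiomyocyte genes Cnn1 was at 0.35, and without a minimum the skeletal muscle median was 0.12. Medians of the oxidative phosphorylation list ran from -0.54 to -0.26, of fatty acid oxidation from -0.51 to -0.11 and of fibroblast markers from 0.30 to 0.83, while that of activated fibroblast markers ran from -0.67 to 0.61 and kept its sign in 13 of 16. No paired analysis was possible because the groups come from 1 section and no replicate exists.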

Other observations

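Some fibroblast products and an amino acid enzyme that belong to no list were read after the leading genes had been seen, and are given as values. The Wnt inhibitor Sfrp2 had 11.2 CPM in the control and 146, 193, 246 and 317 CPM over the 4 groups of rising Myh7 share, a log2 ratio of high over low of 1.11 (0.96 to 1.27). The matrix protein Prelp had 78.2 CPM in the control and 267, 305, 369 and 513 CPM, a ratio of 0.94 (0.82 to 1.06). The serine protease Htra3 was at 0.85 (0.69 to 1.02) and Crispld2 at 0.83 (0.68 to 0.99). All 4 lay above 0 in the 3 quadrants, and in the upper right they lay between 0.03 and 0.41, where the median of all genes was -0.04. Got2, the mitochondrial aspartate aminotransferase, had 1490 CPM in the control and 925, 873, 741 and 597 CPM, a ratio of -0.63 (-0.71 to -0.55) that was 0.03 in the upper right quadrant.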
